A study of Mus musculus with 16 samples.

Results

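Microglia and cells labelled as astrocytes were compared for 10 genes of the myeloid lineage, namely 4 genes of the membrane-spanning 4A family (Ms4a7, Ms4a6b, Ms4a6c and Ms4a6d) and 6 genes read as signs of border macrophages or monocytes (Clec12a, Lyz2, Mrc1, Pf4, Cd163 and Ly6c2). They were picked by symbol with their values in these data already known. Where a symbol occurred more than once, the entry with the highest summed count was taken. They are 10 of the 55414 features measured in microglia and 10 of the 56980 measured in astrocytes, and all 10 passed the filter on low counts in each cell type. Because known values chose the genes, their fold changes are descriptions with standard errors. Where the text says that one of them was called, or counts those past the threshold of the fit over all genes, that too restates values known when the genes were chosen and is no evidence about them.

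The libraries came from mice with a conditional deletion of Rack1 in microglia, from mice of an Alzheimer's disease (AD) model, from mice with both and from mice with neither. Each cell type had 4 groups of 2 libraries: wild type (WT), Rack1 knockout (CKO), wild type in the AD model (AD WT) and knockout in the AD model (AD CKO). The AD transgenes, the Cre driver, ages, sexes, the way cells were isolated and whether libraries of a group came from separate animals are not given in the sources used here. The spread between libraries may therefore be technical.

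Microglia are the resident macrophages of the brain tissue itself. Border macrophages live in the meninges, around vessels and in the choroid plexus, and are usually told apart by genes such as Mrc1, Pf4, Cd163 and Ms4a7. MS4A proteins cross the membrane 4 times and sit in the surface or endosomal membranes of immune cells. Human genetic studies of AD have repeatedly pointed to the MS4A cluster. Clec12a is an inhibitory lectin receptor of myeloid cells. Lyz2 is the lysozyme of phagocytes, and Ly6c2 is a surface marker of inflammatory monocytes.

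The 4 Ms4a genes lie in 1 cluster on chromosome 19 of the mm10 build. Ms4a7 (ENSMUSG00000024672) occupies chr19:11321039-11336146 on the minus strand. Ms4a6c (ENSMUSG00000079419) at chr19:11469366-11482192 and Ms4a6b (ENSMUSG00000024677) at chr19:11516512-11531256 are on the plus strand, and Ms4a6d (ENSMUSG00000024679) at chr19:11586604-11604849 is on the minus strand. The other genes are scattered. Clec12a (ENSMUSG00000053063) lies at chr6:129342691-129365303 and Cd163 (ENSMUSG00000008845) at chr6:124304656-124330527. Lyz2 (ENSMUSG00000069516) lies at chr10:117277331-117282321 and Mrc1 (ENSMUSG00000026712) at chr2:14229392-14332057. Pf4 (ENSMUSG00000029373) lies at chr5:90772435-90773383 and Ly6c2 (ENSMUSG00000022584) at chr15:75108158-75111970.

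Start-site windows of 4 genes are printed because these genes span the range of responses to the knockout, from the steepest (Ms4a7, Clec12a) through the mannose receptor Mrc1 to Cd163, which moved least among the border macrophage receptors. Each runs 5′ to 3′ on the gene's own strand from 250 bases before to 50 bases after the RefSeq start site (GRCm38.p6). Capitals mark matches on either strand to any of 7 short motifs: ETS (GAGGAA), the ETS-IRF composite (GGAA and GAAA with any 2 bases between), ISRE (GAAA and GAAA with any 2 bases between), AP-1 (TGANTCA), C/EBP (TTGCNNAA), MAF (TGCTGAC) and the E-box (CACGTG). The windows are chr19:11336097-11336396 on the minus strand for Ms4a7, and chr6:129349994-129350293, chr2:14229164-14229463 and chr6:124304401-124304700 on the plus strand for Clec12a, Mrc1 and Cd163.
Ms4a7: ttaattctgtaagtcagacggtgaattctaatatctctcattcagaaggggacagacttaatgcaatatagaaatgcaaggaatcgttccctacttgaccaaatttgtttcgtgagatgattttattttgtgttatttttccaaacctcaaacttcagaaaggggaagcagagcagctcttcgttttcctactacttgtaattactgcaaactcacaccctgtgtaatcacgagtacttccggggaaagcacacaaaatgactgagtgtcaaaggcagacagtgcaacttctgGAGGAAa
Clec12a: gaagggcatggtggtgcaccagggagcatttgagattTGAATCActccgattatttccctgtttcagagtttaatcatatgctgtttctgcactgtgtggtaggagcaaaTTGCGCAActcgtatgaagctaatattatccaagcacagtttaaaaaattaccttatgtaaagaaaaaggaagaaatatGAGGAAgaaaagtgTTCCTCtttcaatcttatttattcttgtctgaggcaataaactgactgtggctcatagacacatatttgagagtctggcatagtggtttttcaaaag
Mrc1: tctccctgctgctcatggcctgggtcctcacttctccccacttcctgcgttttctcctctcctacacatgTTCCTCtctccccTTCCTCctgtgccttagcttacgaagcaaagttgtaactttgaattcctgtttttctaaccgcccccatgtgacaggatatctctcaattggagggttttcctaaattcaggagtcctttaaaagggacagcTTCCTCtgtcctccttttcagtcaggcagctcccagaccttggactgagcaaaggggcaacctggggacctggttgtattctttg
Cd163: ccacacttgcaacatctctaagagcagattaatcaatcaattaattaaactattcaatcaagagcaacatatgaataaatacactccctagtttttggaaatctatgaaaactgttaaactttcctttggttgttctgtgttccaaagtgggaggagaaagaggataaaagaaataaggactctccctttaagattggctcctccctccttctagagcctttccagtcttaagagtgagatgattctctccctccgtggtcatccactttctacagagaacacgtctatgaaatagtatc

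RefSeq windows were found for 9 of the 10 genes, all but Ms4a6d. GAGGAA, the core of sites bound by PU.1 and other ETS factors, was in 5 of the 9 windows and in 28.3% of 32817 mouse promoters of this length. Mrc1 held 3 copies, at −180, −167 and −35 from the start site, Clec12a held 2, at −61 and −47, and Ms4a7 held 1, at 44 after it. Clec12a also carried the C/EBP letters at −140 and the AP-1 letters at −213, which 10.8% and 7.81% of promoters hold. The ETS-IRF, ISRE, MAF and E-box letters were in 0 of the 9 windows, against 2.72%, 3.43%, 4.67% and 7.15% of promoters. Cd163, Lyz2, Ms4a6b and Ms4a6c held none of the 7 motifs in these windows. The RefSeq start sites of Ms4a6b and Clec12a lay 2047 and 280 bases from the 5′ end of the principal transcript in the annotation. Their windows do not cover that end, whereas the start sites of the remaining genes lay 0 to 49 bases from it. A match is a run of letters and not a measured binding site.

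Counts per library ran from 27741882 to 33933068 in microglia and from 29615853 to 35851170 in astrocytes, and levels are given as CPM, that is counts relative to the library total corrected by TMM factors. Rack1 itself was at 98.1 and 95.2 CPM in WT microglia and at 40.4 and 42.0 in CKO microglia. In the AD model it was at 113 and 115 CPM in AD WT and at 47.2 and 47.8 in AD CKO microglia. The groups did not overlap, and the labels of the microglia libraries match the targeted gene. In the astrocyte libraries Rack1 was higher in CKO (102 and 95.7 CPM) than in WT (61.1 and 57.9), and lower in AD CKO (54.7 and 53.3 CPM) than in AD WT (76.6 and 72.9). A list of 14 microglia markers summed to between 34358 and 58645 CPM in the microglia libraries and to between 1977 and 3305 CPM in the astrocyte libraries. The sum in microglia was lower with the knockout, at 34358 and 34576 CPM in CKO against 57108 and 58645 in WT. The libraries labelled astrocyte summed to between 10159 and 23321 CPM over 10 astrocyte markers and to between 6961 and 19233 CPM over 10 oligodendrocyte markers.

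**Figure D1:**
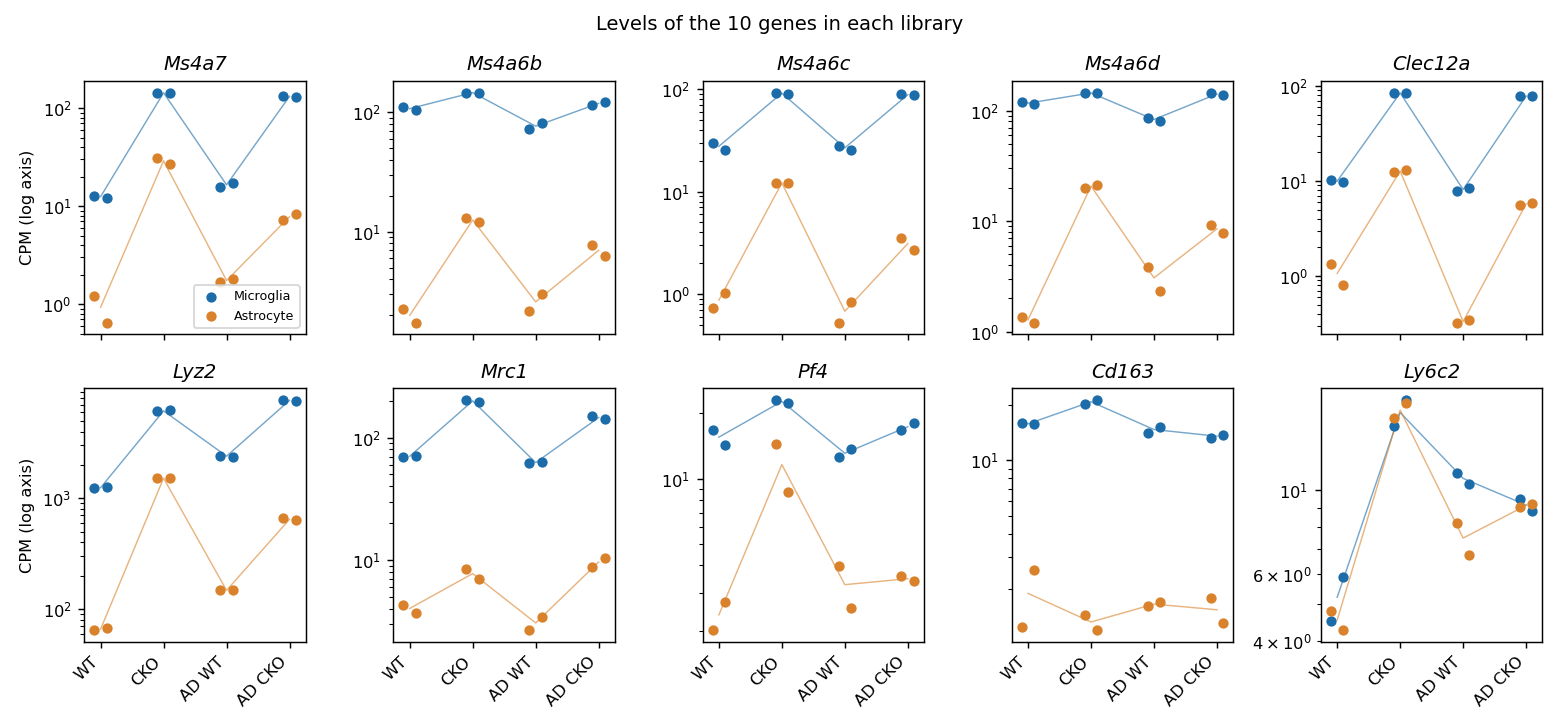
Level of each of the 10 genes in every library, in CPM on a log axis, by group and cell type, where each point is 1 library. In microglia Ms4a7 lies at 12.2 and 12.8 CPM in WT and at 142 and 144 in CKO, whereas Cd163 lies between 13.2 and 21.2 in all 8 libraries.

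In knockout microglia all 4 Ms4a members were higher than in their controls, with and without the AD model. Ms4a7, a widely used marker of border macrophages, was at 12.8 and 12.2 CPM in WT and at 144 and 142 CPM in CKO. The corresponding values were 15.7 and 17.3 CPM in AD WT and 133 and 129.96 CPM in AD CKO. No knockout library overlapped any library with intact Rack1, and the differences were 11.5-fold and 7.98-fold (log2 3.52 ± 0.07 and 2.996 ± 0.07, SE).

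Ms4a6c was at 30.03 and 25.3 CPM in WT and at 92.3 and 89.8 CPM in CKO. In the AD model it was at 27.7 and 25.7 CPM in AD WT and at 89.3 and 86.4 CPM in AD CKO. The log2 difference was 1.72 ± 0.08 in each background. Of the runs of 75 bases in its transcripts, 53.4% also occur in BE692007, which was at 6.60 CPM in both WT libraries and at 31.2 and 31.7 in CKO, so the split of reads between them is uncertain.

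Ms4a6b and Ms4a6d started high and moved less. Ms4a6b was at 109.8 and 105 CPM in WT, 146 in both CKO libraries, 72.4 and 80.6 in AD WT, and 115 and 122 in AD CKO. Ms4a6d was at 118 and 115 CPM in WT, 144 and 145 in CKO, 84.9 and 81.0 in AD WT, and 146 and 137 in AD CKO. For each gene the 2 knockout libraries lay above the 2 controls in both backgrounds. The log2 differences of Ms4a6b were 0.45 ± 0.06 without and 0.64 ± 0.06 with the AD model, and those of Ms4a6d were 0.31 ± 0.05 and 0.77 ± 0.05.

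Of 15 further Ms4a genes, 11 had fewer than 30 counts in every microglia library, and the other 4 lie between Ms4a7 and Ms4a6c or next to Ms4a7. Ms4a4a rose from 21.6 and 27.04 CPM in WT to 96.1 and 119.6 in CKO (log2 2.15 ± 0.26, edgeR adjusted p = 0.00419). In the AD model it was at 23.9 and 20.9 CPM in AD WT and at 53.6 and 78.1 in AD CKO (log2 1.56 ± 0.27, edgeR adjusted p = 0.0142). The second call was lost without the first or the second AD WT library (edgeR adjusted p = 0.0756 and 0.0953). Ms4a4c rose from 7.18 and 6.60 CPM to 20.5 and 16.9 (log2 1.44 ± 0.14, edgeR adjusted p = 1.56e-09), and from 6.95 and 6.77 to 17.4 and 16.9 in the AD model (log2 1.32 ± 0.14, edgeR adjusted p = 1.58e-08).

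Ms4a4b was scarce, at 0.258 and 1.06 CPM in WT and 3.63 and 3.35 in CKO (log2 2.41 ± 0.42, edgeR adjusted p = 9.71e-05). Ms4a4b is also on the list of lymphocyte markers used below. In the AD model it was at 1.26 and 0.791 CPM in AD WT and 2.50 and 3.06 in AD CKO (log2 1.44 ± 0.41, edgeR adjusted p = 0.00893). This second call was lost without the second AD WT library or the second AD CKO library (edgeR adjusted p = 0.114 and 0.0683). Ms4a14 had 0 and 33.75 counts in WT, 147.81 and 152.35 in CKO, 30.4 and 10.01 in AD WT, and 214.81 and 170.51 in AD CKO. Its knockout libraries lay above all others, but the edgeR adjusted p was 0.106 without and 0.101 with the AD model. With the AD WT and AD CKO libraries fitted alone, Ms4a14 passed in AD CKO against AD WT (log2 3.18, edgeR adjusted p = 1.67e-06). It passed without the first WT library, which had no counts (edgeR adjusted p = 0.000234 in CKO against WT).

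The related genes Tmem176a and Tmem176b, which code for MS4A-like proteins of endosomal membranes, did not move together. Tmem176a rose in both backgrounds, by log2 0.22 ± 0.05 (edgeR adjusted p = 0.00043) and 0.53 ± 0.05 (edgeR adjusted p = 5.68e-10). Tmem176b fell by 0.28 ± 0.04 on the log2 scale in CKO (edgeR adjusted p = 4.3e-06) and had a log2 difference of 0.03 ± 0.04 in the AD model (edgeR adjusted p = 0.687). Counting these with the Ms4a genes, 4 of the 7 tested were higher and 1 lower in CKO microglia, and 4 were higher and 0 lower in AD CKO microglia.

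**Figure D2:**
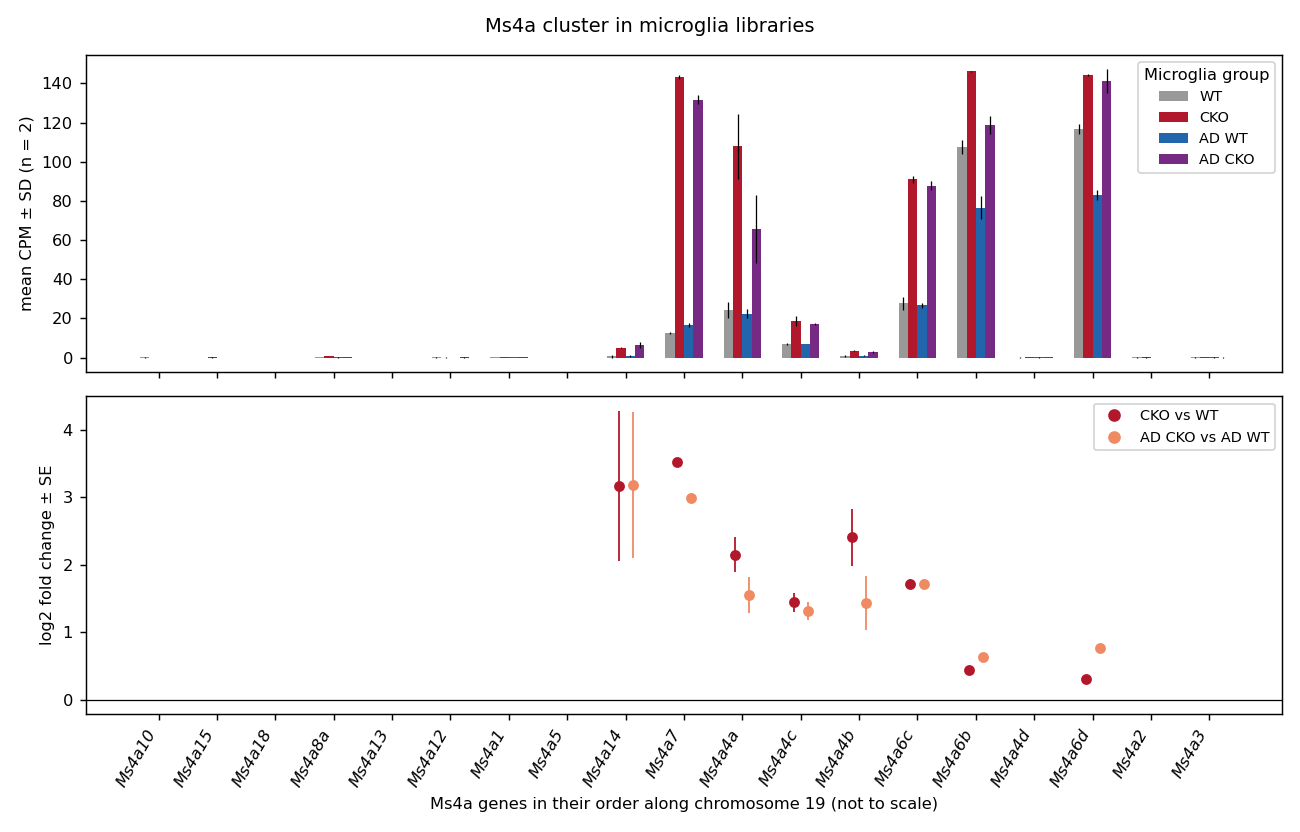
Ms4a genes in their order along chromosome 19, with mean CPM ± SD of 2 microglia libraries per group (bars, linear axis from 0) above and log2 fold changes ± SE of the knockout below, drawn for genes that reach 30 counts in a library. The knockout differences of Ms4a7 are 3.52 and 2.996, and Ms4a6d, 7 genes further along, has 0.31 and 0.77.

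Clec12a differed between knockout and control on a scale like that of Ms4a7. It was at 10.3 and 9.64 CPM in WT microglia and at 85.3 and 83.6 in CKO, and at 7.90 and 8.35 CPM in AD WT and 78.7 and 77.7 in AD CKO. All 4 knockout libraries lay above all 4 others, by 8.47-fold without and 9.62-fold with the AD model (log2 3.08 ± 0.08 and 3.27 ± 0.09).

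Mrc1, the mannose receptor CD206, was at 69.5 and 71.4 CPM in WT and at 203 and 195 in CKO. In the AD model it was at 62.1 and 62.9 CPM in AD WT and at 151 and 141 in AD CKO. The groups did not overlap, and the ratios were 2.83 and 2.33 (log2 1.4997 ± 0.05 and 1.22 ± 0.06).

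Cd163, the haemoglobin scavenger receptor, stood at 15.9 and 15.7 CPM in WT, 20.2 and 21.2 in CKO, 14.1 and 15.2 in AD WT, and 13.2 and 13.8 in AD CKO. It was thus highest in the 2 CKO libraries, and in the AD model the knockout libraries lay just under the controls. The log2 differences were 0.40 ± 0.11 and −0.12 ± 0.11. Without the second CKO library the first was 0.36 and no longer passed the threshold.

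Lyz2 was the most abundant of the 10 genes. It was at 1239 and 1253 CPM in WT, 6073 and 6217 in CKO, 2428 and 2365 in AD WT, and 7721 and 7551 in AD CKO. The 4 groups were separate, with 4.93-fold and 3.19-fold higher levels with the knockout (log2 2.30 ± 0.03 and 1.67 ± 0.03). Its neighbour and paralogue Lyz1 was far scarcer, at 1.35 and 0.958 CPM in WT and 6.78 and 9.35 in CKO, and 5.96% of the runs of 75 bases in Lyz2 transcripts occur in it.

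Pf4, platelet factor 4, is a chemokine that border macrophages also make. It was at 16.8 and 14.4 CPM in WT, 23.1 and 22.4 in CKO, 12.6 and 13.7 in AD WT, and 16.7 and 18.04 in AD CKO. The knockout libraries lay above their own controls, by log2 0.55 ± 0.11 and 0.41 ± 0.12. The second value passed the threshold over all libraries but not without the first AD WT library or the second AD CKO library, where it was 0.35 in each case. The defining platelet gene Ppbp was at 0 to 0.241 CPM in the microglia libraries, and of 10 platelet genes 6 were tested by edgeR, of which 0 rose and 2 fell in CKO.

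Ly6c2 was highest in CKO, with AD WT and AD CKO close together. It was at 4.51 and 5.91 CPM in WT, 14.8 and 17.4 in CKO, 11.1 and 10.4 in AD WT, and 9.48 and 8.81 in AD CKO. It was higher in CKO than in WT by log2 1.63 ± 0.16, whereas in the AD model the knockout libraries lay slightly below their controls (log2 −0.24 ± 0.15). Ly6c1, which carries 21.9% of the runs of 75 bases in Ly6c2 transcripts, was at 91.2 and 87.7 CPM in WT, 97.1 and 101 in CKO, 162 and 163 in AD WT, and 106 in both AD CKO libraries, so reads may have been shared between the pair.

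Neutrophil markers had the same order of groups as Ly6c2 in the microglia libraries. A list of 12 summed to 289 and 277 CPM in WT, 723 and 733 in CKO, 511 and 513 in AD WT, and 321 and 334 in AD CKO. In CKO 11 of 12 rose and 0 fell, and in AD CKO against AD WT, where Ly6c2 was not called, 0 rose and 11 fell. The granule gene Ngp was at 57.8 and 59.1 CPM in WT and at 170 and 183 in CKO (log2 1.59, edgeR adjusted p = 8.08e-18). Of 18 genes on the monocyte list, 11 rose and 1 fell in CKO, while in the AD model 4 rose and 5 fell. This list is not particular to monocytes, as it holds Cd177 and Chil3, which neutrophils also express. In WT, CKO, AD WT and AD CKO, Cd177 averaged 8.46, 30.2, 17.6 and 12.7 CPM. Chil3 averaged 19.9, 49.4, 32.0 and 24.5 CPM, so both had the group order of the neutrophil sum. Ccr2, the chemokine receptor of inflammatory monocytes, was at 38.7 and 32.0 CPM in WT and 42.2 and 35.6 in CKO (log2 0.14, edgeR adjusted p = 0.342). In the astrocyte libraries the order differed. There the neutrophil sum was 46.5 and 40.4 CPM in AD WT, below 60.3 and 64.2 in WT. Ly6c2 was at 8.21 and 6.74 CPM in AD WT, above 4.80 and 4.27 in WT. The part of neutrophil or monocyte RNA in the Ly6c2 values was not tested.

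**Figure D3:**
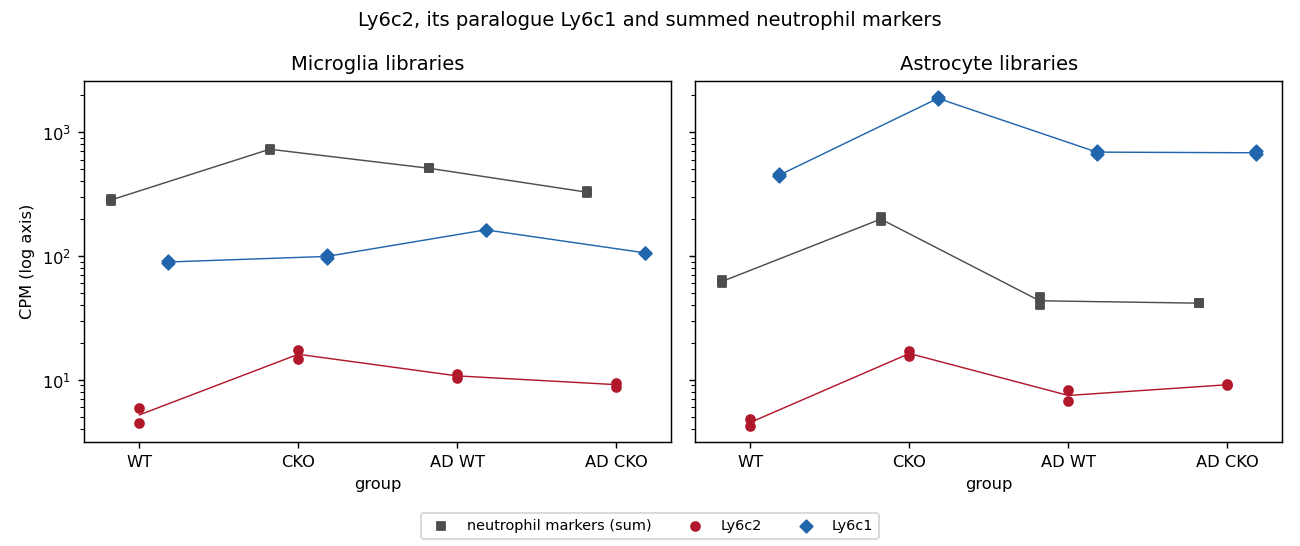
Ly6c2, its paralogue Ly6c1 and the sum of 12 neutrophil markers in CPM on a log axis, with 1 point per library and lines through the group means. In microglia Ly6c2 and the neutrophil sum are both highest in CKO, at 14.8 and 17.4 CPM and at 723 and 733 CPM, and in astrocytes Ly6c2 is at 15.6 and 17.1 CPM in CKO. In AD WT against WT astrocyte libraries Ly6c2 is higher and the neutrophil sum lower.

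As a description, 10 of the 10 genes lay past the edgeR threshold (adjusted p under 0.05) as higher and 0 as lower in CKO against WT microglia. Of all 17318 tested genes 33.6% were called, 17.7% as higher and 15.9% as lower. The median log2 difference of the 10 was 1.56, beside 0.04 over all tested genes. In AD CKO against AD WT microglia 8 were called higher and 0 lower, with 32.0% of all genes called (17% higher, 15.0% lower), a median of 0.99 and a median over all genes of −0.00. Of the 10, 6 were higher by at least 2-fold in the first comparison and 5 in the second, as were 4.79% and 2.49% of all tested genes. These counts restate what chose the genes, and nothing is read from them.

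**Figure D4:**
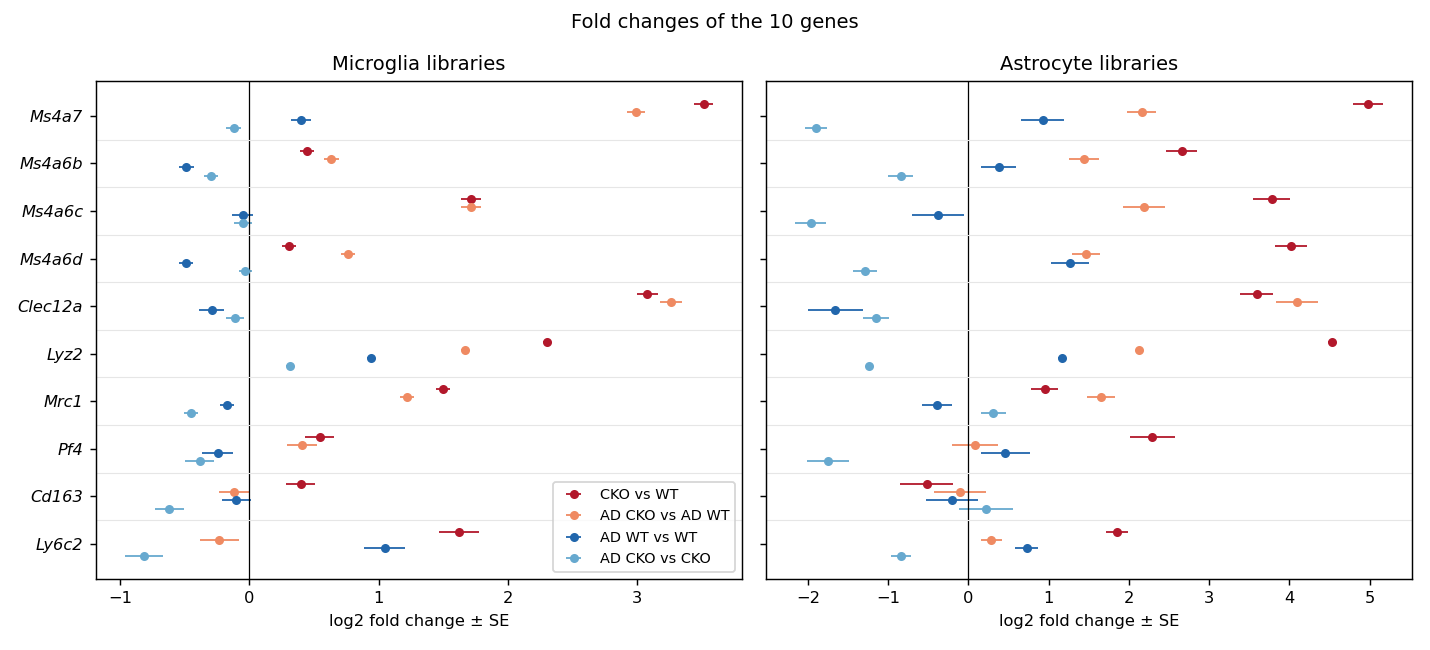
Log2 fold changes ± SE of the 10 genes in the 4 pairwise comparisons, microglia libraries on the left and astrocyte libraries on the right. In CKO against WT the microglia values run from 0.31 (Ms4a6d) to 3.52 (Ms4a7), and the astrocyte values from −0.52 (Cd163) to 4.98 (Ms4a7).

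Since the summed microglia markers were lower with the knockout (CKO 0.596 times WT, AD CKO 0.722 times AD WT), the genes were also set against that sum. Per unit of microglia markers Ms4a7 was 19.2-fold higher in CKO and 11.1-fold higher in AD CKO, and Clec12a 14.2-fold and 13.3-fold. Mrc1 was 4.75-fold and 3.23-fold higher, Cd163 2.21-fold and 1.28-fold, and Ms4a6d 2.08-fold and 2.36-fold. In bulk libraries fewer cells of a type and less RNA per cell cannot be told apart. Of the 14 microglia markers 12 fell in CKO, and 8 fell and 4 rose in AD CKO against AD WT. Markers of other cells also moved. Oligodendrocyte markers summed to 3152 and 3294 CPM in WT, 8238 and 8631 in CKO, 3759 and 3761 in AD WT, and 2268 and 2319 in AD CKO. Of 10 such markers 5 rose and 2 fell in CKO against WT, with a median log2 difference of 0.38. Of 10 astrocyte markers 7 rose and 1 fell, of 10 neuron markers 7 rose and 0 fell, and of 9 endothelial markers 5 rose and 0 fell. Of 9 mural and fibroblast markers 2 rose and 0 fell, and of 9 lymphocyte markers tested 4 rose and 1 fell. In AD CKO against AD WT 9 of 10 oligodendrocyte, 9 of 10 astrocyte, 7 of 9 endothelial and 5 of 9 mural and fibroblast markers fell, and none of these rose by edgeR. Of the neuron markers 2 rose and 0 fell, and of the lymphocyte markers 1 rose and 1 fell. The part of these shifts in the values of the 10 genes was not tested.

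Other border macrophage genes went both ways with the knockout. Of 20 on a list, 9 rose and 3 fell in CKO microglia, with a median log2 difference of 0.26, and 10 rose and 5 fell in AD CKO against AD WT, also with a median of 0.26. Siglec1, a sialic acid receptor of perivascular and other tissue macrophages, was at 8.05 and 8.06 CPM in WT and at 21.8 and 25.5 in CKO. In the AD model it was at 8.28 and 9.42 CPM in AD WT and at 23.3 and 22.7 in AD CKO. Its log2 differences were 1.55 ± 0.12 (edgeR adjusted p = 4.49e-11) and 1.38 (edgeR adjusted p = 6.7e-10).

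Cd38, an ectoenzyme that consumes NAD, rose by log2 1.34 and 1.17 in the 2 backgrounds (edgeR adjusted p = 4.91e-10 and 1.74e-08). Dab2, an endocytic adaptor, rose by 1.03 and 0.72 (edgeR adjusted p = 1.6e-14 and 5.86e-11). Stab1, a scavenger receptor, had 369 and 404 CPM in WT and 476 and 495 in CKO, and 322 and 325 CPM in AD WT and 444 and 468 in AD CKO. It was higher with the knockout by log2 0.33 and 0.49 (edgeR adjusted p = 1.52e-09 for the second). The eosinophil chemokine gene Ccl24 fell by 0.79 and by 1.42 on the log2 scale (edgeR adjusted p = 0.000418 and 3.33e-07), and the lectin gene Cd209b fell by 1.67 without the AD model (edgeR adjusted p = 0.0014).

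Lyve1 and Cbr2, which mark the meningeal and perivascular subset and were singled out after their values were seen, did not pass in either background. Lyve1 was at 9.63 and 9.05 CPM in WT and 11.7 and 12.7 in CKO (log2 0.38, edgeR adjusted p = 0.0502), and at 10.3 and 7.94 in AD WT and 8.42 and 8.05 in AD CKO (log2 −0.15, edgeR adjusted p = 0.505). Cbr2 was at 13.3 and 12.2 CPM in WT and 13.3 and 10.7 in CKO (log2 −0.08, edgeR adjusted p = 0.721), and at 8.58 and 8.63 in AD WT and 8.45 and 11.2 in AD CKO (log2 0.19, edgeR adjusted p = 0.374).

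**Figure D5:**
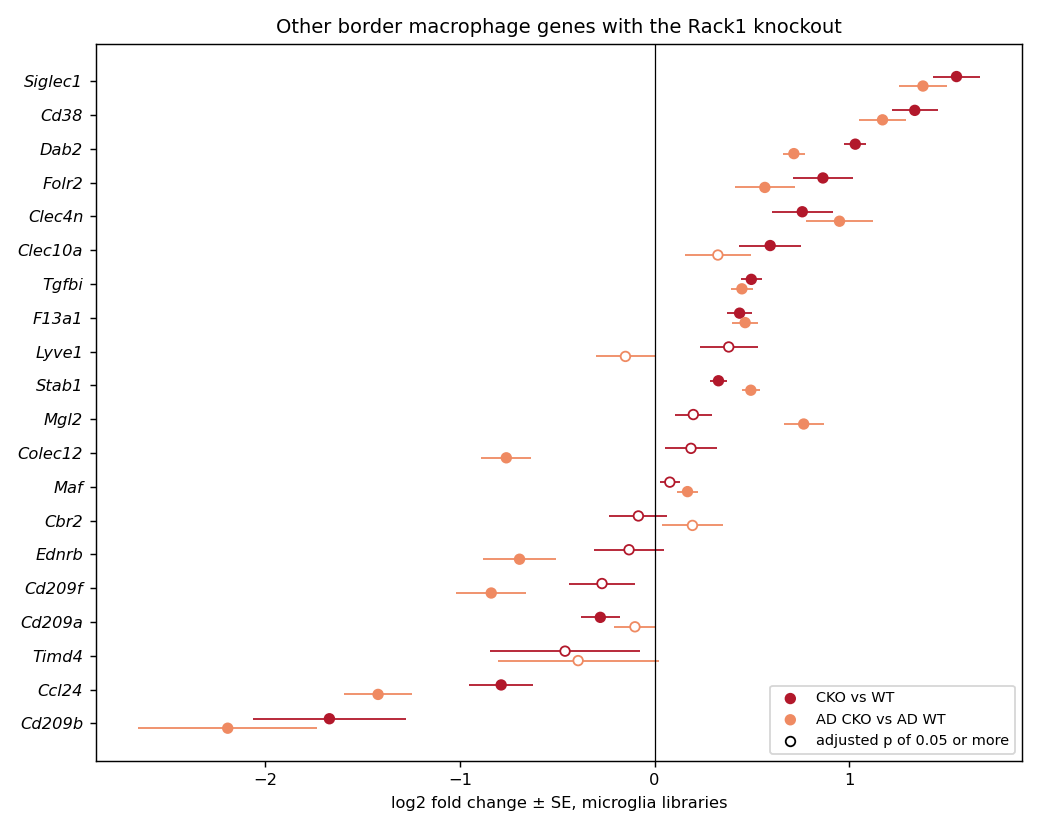
Log2 fold changes ± SE of 20 other border macrophage genes with the Rack1 knockout in microglia libraries, without and with the AD model, where open points have an adjusted p of 0.05 or more. Siglec1 lies at 1.55 and 1.38 and Cd209b at −1.67 and −2.19, on opposite sides of 0.

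Lectin genes of myeloid cells also went both ways beside Clec12a and Mrc1. Of 17 tested, 4 rose and 5 fell in CKO microglia. The Mincle gene Clec4e rose by log2 1.72 (edgeR adjusted p = 1.41e-07), the oxidised LDL receptor gene Olr1 by 1.55 (edgeR adjusted p = 1.55e-07) and Clec5a by 0.72 (edgeR adjusted p = 5.62e-13). Mrc2, the endocytic collagen receptor of the same family as Mrc1, fell by 3.07 ± 0.08 on the log2 scale (edgeR adjusted p = 2.34e-19), and Clec4a3 fell by 2.03 (edgeR adjusted p = 2.13e-17). Thus Mrc1 and Mrc2 lay on opposite sides of 0. Of the 10 Ly6 family genes tested, 6 rose and 1 fell in CKO, with Ly6i at log2 2.42 (edgeR adjusted p = 4.15e-08).

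The AD model without the knockout moved the 10 genes in both directions in microglia. Against WT, AD WT had 3 called higher and 4 called lower, with 19.3% of all tested genes called (10.7% higher, 8.62% lower) and a median log2 difference of −0.14, beside −0.02 over all genes. This comparison shares the WT libraries with CKO against WT. Ly6c2 (log2 1.05 ± 0.16), Lyz2 (0.94 ± 0.03) and Ms4a7 (0.40 ± 0.08) were higher. Ms4a6b (−0.49 ± 0.06) and Ms4a6d (−0.49 ± 0.05) were lower, and so were Clec12a (−0.29 ± 0.10) and Mrc1 (−0.17 ± 0.06). The calls of Clec12a and Mrc1 were lost when the 4 libraries were fitted alone (−0.28 and −0.16). Both were also lost without a low-count filter (−0.28 and −0.16), and that of Clec12a with DESeq2 (−0.29). The call of Clec12a was also lost without any single library except the second CKO library, and that of Mrc1 without either WT, either AD WT or the first CKO library. Of the 7 other Ms4a and Tmem176 genes tested, 0 were called by edgeR, 0 had an unadjusted p under 0.05 and 0 were called by DESeq2. Of the 20 other border macrophage genes 1 rose and 9 fell. Clec7a, the lectin gene of the disease-associated state, rose by log2 1.61 with the AD model (edgeR adjusted p = 2.88e-20) and had a difference of −0.08 with the knockout (edgeR adjusted p = 0.219).

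Among knockout libraries, those of the AD model had lower levels of 5 of the 10 genes and a higher level of 1, with 14.7% of all genes called in AD CKO against CKO microglia (7.73% higher, 6.92% lower). Lyz2 was higher by log2 0.31 ± 0.03. Ly6c2 (−0.81 ± 0.15), Cd163 (−0.62 ± 0.11), Mrc1 (−0.45 ± 0.05), Pf4 (−0.39 ± 0.11) and Ms4a6b (−0.30 ± 0.06) were lower. Ms4a7, Ms4a6c, Ms4a6d and Clec12a differed by −0.12 to −0.03 and were not called. The value for Pf4 lost its call without either CKO library or the first AD CKO library. Of the 20 other border macrophage genes 0 rose and 14 fell, and 9 were called without the second AD CKO library. Markers of other cells were lower as well in this comparison: 11 of 12 neutrophil, 13 of 18 monocyte, 9 of 10 oligodendrocyte, 9 of 10 astrocyte and 6 of 10 neuron genes fell. Of 9 endothelial markers 1 rose and 0 fell. Their part in the lower values was not tested.

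The interaction is the log2 effect of the knockout in the AD model minus its effect without it. As a description of genes chosen with these levels known, 6 of the 10 lay past the threshold in microglia, 1 higher and 5 lower, with 12.7% of all genes called (5.53% higher, 7.19% lower). It was most negative for Ly6c2 (−1.86 ± 0.22), followed by Lyz2 (−0.63 ± 0.04), Ms4a7 (−0.52 ± 0.10), Cd163 (−0.52 ± 0.16) and Mrc1 (−0.28 ± 0.08), and it was positive for Ms4a6d (0.46 ± 0.08). The call of Cd163 was lost without any 1 of the 8 libraries and with DESeq2 (−0.51), and that of Mrc1 without the first CKO library, either AD WT library or the second AD CKO library. For the neutrophil markers 0 were higher and 11 lower in the interaction, with a median of −1.94.

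In the astrocyte libraries the same genes were at low levels in WT and several were far higher in CKO. Ms4a7 was at 1.22 and 0.649 CPM in WT and at 31.3 and 26.8 in CKO, and at 1.70 and 1.79 in AD WT and 7.19 and 8.41 in AD CKO. The log2 differences were 4.98 ± 0.19 and 2.16 ± 0.18. Lyz2 was at 64.7 and 67.1 CPM in WT, 1528 and 1509.6 in CKO, 147 and 148 in AD WT, and 659.8 and 630.5 in AD CKO, with log2 differences of 4.53 ± 0.05 and 2.13 ± 0.04. For both genes the CKO libraries lay above all the others.

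Ms4a6b was at 2.26 and 1.73 CPM in WT astrocyte libraries, 13.03 and 12.1 in CKO, 2.17 and 3.0001 in AD WT, and 7.72 and 6.26 in AD CKO. Ms4a6c was at 0.731 and 1.02 CPM in WT, 12.03 and 12.3 in CKO, 0.528 and 0.835 in AD WT, and 3.54 and 2.69 in AD CKO. Ms4a6d was at 1.36 and 1.21 CPM in WT, 20.03 and 21.4 in CKO, 3.81 and 2.32 in AD WT, and 9.28 and 7.75 in AD CKO. Each of the 3 had its order CKO, AD CKO and then both groups with intact Rack1. Clec12a was at 1.32 and 0.804 CPM in WT and 12.4 and 13.02 in CKO. It rested on 11 counts in each AD WT library (0.323 and 0.340 CPM), against 5.63 and 5.83 CPM in AD CKO.

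The remaining genes were less alike. Mrc1 was at 4.35 and 3.74 CPM in WT astrocyte libraries, 8.50 and 7.06 in CKO, 2.70 and 3.46 in AD WT, and 8.81 and 10.5 in AD CKO. Its levels in AD CKO were above those in CKO, by log2 0.31 ± 0.16, a difference that was not called. Pf4 was at 2.02 and 2.72 CPM in WT, 14.5 and 8.73 in CKO, 3.99 and 2.54 in AD WT, and 3.57 and 3.38 in AD CKO. Of 8 platelet genes tested, 7 rose and 1 fell in CKO against WT, where 31.6% of all tested genes were called higher. In AD CKO against AD WT 3 of them rose and 1 fell. The part of platelet RNA in the Pf4 values was not tested. Cd163 stayed between 1.20 and 2.54 CPM in all 8 libraries, with overlapping groups. Ly6c2 was at 4.80 and 4.27 CPM in WT, 15.6 and 17.1 in CKO, 8.21 and 6.74 in AD WT, and 9.06 and 9.19 in AD CKO, while Ly6c1 stood at 459 and 440 CPM in WT and 1908 and 1844 in CKO.

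In CKO against WT astrocytes 9 of the 10 were called higher and 0 lower by edgeR, where 64.0% of 20116 tested genes were called (31.6% higher, 32.4% lower), with medians of 3.12 and 0.01 (log2) for the 10 and for all genes. In AD CKO against AD WT 7 were higher and 0 lower, with 52.1% of genes called (25.1% higher, 27% lower) and a median of 1.56. In AD WT against WT 4 were higher and 1 lower, with 38.0% called (20.0% higher, 18% lower). In AD CKO against CKO 0 were higher and 8 lower, with 59.8% called (31.4% higher, 28.4% lower). In the interaction 1 was higher and 7 lower, with 57.8% called (29.5% higher, 28.3% lower). The interaction was positive for Mrc1 (0.70 ± 0.24), a call lost without the first WT, second CKO, first AD WT or second AD CKO library, and lay at −2.82 ± 0.29 for Ms4a7. The call of Ms4a7 in AD WT against WT (0.92 ± 0.26) was lost without the second WT library, where it was 0.51. It was also lost with the compared groups alone, at 0.89. Ly6c2 in AD CKO against AD WT (0.29 ± 0.13) was not called over all libraries, and passed without the first AD WT library, where it was 0.45. It also passed with RLE size factors and with the compared groups alone, at 0.32 in each case.

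Among the other Ms4a genes, Ms4a4a, Ms4a4b, Ms4a4c and Ms4a4d rose in CKO astrocyte libraries by log2 3.85, 4.54, 3.10 and 2.57 (edgeR adjusted p = 2.04e-09, 1.3e-07, 7e-08 and 7.54e-07). In AD CKO against AD WT Ms4a4a rose by 1.00 (edgeR adjusted p = 0.00861) and Ms4a4c by 1.45 (edgeR adjusted p = 0.00203), the first call being lost without the first AD WT or second AD CKO library and the second without the second AD WT library. Tmem176a and Tmem176b rose by log2 0.34 and 0.33 in CKO and fell by 0.59 and by 0.48 in AD CKO against AD WT, so that their direction with the knockout differed between the backgrounds. The interaction terms were −0.93 and −0.81 on the log2 scale. Of 19 other border macrophage genes tested, 11 rose and 4 fell in CKO against WT, and 8 rose and 3 fell in AD CKO against AD WT. Cd38 of this list was at 294 and 323 CPM in WT and 163 and 185 in CKO astrocyte libraries.

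Markers of other cells also differed between the groups, not always in the same direction as the 10 genes. The microglia markers summed to 2049 and 1977 CPM in WT astrocyte libraries, 3298 and 3305 in CKO, 2572 and 2559 in AD WT, and 2368 and 2322 in AD CKO. The CKO sum was 1.64 times that of WT, and 13 of 14 markers rose. The AD CKO sum was 0.914 times that of AD WT, although 9 of the 14 markers rose and 3 fell. The sum and most of its members thus went opposite ways there, which bears on values per unit of microglia markers. Over the same groups the astrocyte markers summed to 22972 and 23321, 10159 and 10377, 21800 and 22523, and 13969 and 14112 CPM. The endothelial markers, Ly6c1 among them, summed to 1765 and 1758, 4542 and 4497, 2085 and 2089, and 2457 and 2479 CPM. The neutrophil markers summed to 60.3 and 64.2, 207 and 190, 46.5 and 40.4, and 41.4 and 41.8 CPM. The lymphocyte markers summed to 1.84 and 2.01, 14.6 and 12.4, 5.89 and 5.20, and 4.43 and 5.43 CPM, with 8 of 9 higher in CKO against WT. This list includes Ms4a4b, which averaged 3.12 of the 13.5 CPM in CKO. All 3 sums were highest in CKO. The oligodendrocyte markers summed to 14595 and 14757, 13403 and 13746, 6961 and 7163, and 19233 and 19088 CPM. Of these 10 markers 10 fell in AD WT against WT, and 10 rose in AD CKO against AD WT. The platelet gene Ppbp stood at 1.29 and 1.64 CPM in WT and at 6.67 and 7.63 in CKO. Per unit of microglia markers Ms4a7 was 19.1-fold higher in CKO and 4.89-fold higher in AD CKO than in its control, Lyz2 14.05-fold and 4.79-fold, and Clec12a 7.32-fold and 18.9-fold. Mrc1 was 1.17-fold and 3.43-fold higher on this scale. The part of microglia and other cells in the astrocyte values was not tested.

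Set beside the microglia libraries, where the 2 tables were scaled separately and no test was made, the microglia marker sum of the astrocyte libraries was 3.48%, 9.58%, 5.20% and 6.59% of that in microglia in WT, CKO, AD WT and AD CKO. Mrc1 was at 5.74%, 3.91%, 4.93% and 6.64% of its microglia level. Ms4a7 was at 7.47%, 20.3%, 10.6% and 5.93%, and Lyz2 at 5.29%, 24.7%, 6.15% and 8.45%. In CKO both had a higher share than the marker sum, and Mrc1 had a lower one. Ly6c2 stood apart at 87.0%, 101%, 69.5% and 99.8%, being nearly as high in astrocyte as in microglia libraries. Ly6c1 shares sequence with it and is also on the list of endothelial markers. Over the same groups Ly6c1 averaged 449, 1876, 690 and 682 CPM in astrocyte libraries. In microglia it averaged 89.4, 99.2, 163 and 106 CPM. Reads shared with Ly6c1 may therefore weigh more in the astrocyte values of Ly6c2, which was not tested.

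Divided by the length of the principal transcript in the annotation, the order of the 10 genes in WT microglia was led by Lyz2 at 947 CPM per kilobase, followed by Ms4a6d at 82.3, Ms4a6b at 40.0, Pf4 at 26.5, Ms4a6c at 15.0 and Mrc1 at 13.1. Ms4a7 came next at 9.37, then Ly6c2 at 6.34, Clec12a at 3.98 and Cd163 at 3.58. In CKO Lyz2 stood at 4669 and Ms4a7 had moved up beside Ms4a6d, at 107 against 102 CPM per kilobase. Clec12a stood at 33.7 there, close to Mrc1 at 37.1 and Pf4 at 38.7. Cd163 remained last at 4.71. The order depends on which transcript is taken. With the longest transcript of each gene, a choice made after seeing the data, Ms4a7 was at 3.47 in WT and 39.7 in CKO, well below Ms4a6d at 82.3 and 102. Ly6c2 was then at 1.94 and 6.001 CPM per kilobase and Ms4a6b at 25.04 and 34.1. Which transcripts the reads came from is not known.

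The genes with the most similar patterns over the 8 microglia libraries were sought among 10193 genes with a mean of at least 5 CPM. The chosen genes of the myeloid lineage were left out as candidates. The likeness of Clec12a to Ms4a7, for example, was therefore not ranked, and the genes listed need not be nearer than it. Likeness was the mean absolute difference of log2 CPM after centring each gene. Nearest to Ms4a7 among these candidates were Tlr8 (0.145), a sensor of single-stranded RNA, then Emilin1 (0.156), Gpr31c (0.169), the cell cycle inhibitor gene Cdkn1a (0.184) and Klra2 (0.227). Their log2 differences were 2.96, 3.01, 2.76, 2.63 and 2.62 in AD CKO against AD WT, beside 2.996 for Ms4a7. Nearest to Mrc1 among the same candidates were Slc26a11 (0.0776), Cd38 (0.0926), the fatty acid receptor gene Cd36 (0.114), Mgst1 (0.118) and Ifitm10 (0.118). Cd38 is also on the list of border macrophage genes. It was, however, at 294 and 323 CPM in WT astrocyte libraries, beside 11.6 and 11.1 in WT microglia. These likenesses are descriptions over 8 libraries in 4 groups.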

How the data were processed

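RNA was extracted with TRIzol, treated with DNase I and amplified from 10 ng with SMART-Seq v4 before paired sequencing of 150 bases, per the labels' protocols. The authors deposited 1 table of expected counts per gene and cell type. Their processing notes name fastp, HISAT2, StringTie and mm10. Versions, the counting step and strand handling are not given in the sources used here. Expected counts were rounded and fitted in R 4.3.3 with edgeR 4.0.16 (quasi-likelihood, TMM, filterByExpr), over the 8 libraries of each cell type, with Benjamini-Hochberg adjustment over all tested genes and a threshold of 0.05. The standard error of a log2 fold change was its size divided by the square root of F. The fit was tested on simulated data. Depth was similar across libraries, and the common biological coefficient of variation was 0.0678 in microglia and 0.0579 in astrocytes.

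The members and lists were chosen with earlier results of these data known. Genes named besides the 10 were those of the Ms4a family, up to 4 risen and 4 fallen genes with the smallest p per other list and comparison, the 5 nearest patterns to Ms4a7 and Mrc1, and Rack1. The other lists held monocyte, neutrophil, platelet, lectin, Ly6, and border macrophage genes and markers of microglia, astrocytes, oligodendrocytes, neurons, endothelial cells, mural cells and fibroblasts, and lymphocytes. Genes named outside this rule, such as Lyve1 and Cbr2, were chosen after their values were seen. Sequences came from RefSeq (GRCm38.p6), and gene positions and transcript lengths from GENCODE M21, which matched 94.0% and 91.4% of features. Alternatives were RLE size factors, DESeq2 1.42.0, other filters, a replicate block, the compared groups alone and leaving out each library. Same-numbered libraries did not deviate together (correlations from −0.0303 to 0.0477), so the numbers were not used as pairs. Libraries of a group differed by more than sampling noise (chi-square per degree of freedom from 3.81 to 7.47), so none was treated as a repeat deposit of another. This does not show that they came from separate animals.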

Additional observations from a re-analysis of the deposited data

Results flagged for a closer look

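The effect of the knockout in the AD model minus its effect without the AD model passed the edgeR threshold (adjusted p under 0.05 over all genes) for several of the genes described, which for the 10 chosen genes restates values known when they were chosen. In microglia the log2 difference was −0.52 for Ms4a7, 0.46 for Ms4a6d, −0.63 for Lyz2, −0.28 for Mrc1, −0.52 for Cd163 and −1.86 for Ly6c2. Tmem176a and Tmem176b each had 0.31. In the astrocyte libraries it was −2.82 for Ms4a7, −1.22 for Ms4a6b, −1.59 for Ms4a6c, −2.55 for Ms4a6d, −2.40 for Lyz2, 0.70 for Mrc1, −2.20 for Pf4 and −1.56 for Ly6c2. There it was also −2.84 for Ms4a4a, −4.75 for Ms4a4b, −1.65 for Ms4a4c, −1.88 for Ms4a4d, −0.93 for Tmem176a and −0.81 for Tmem176b. In these libraries 57.8% of all tested genes passed for this difference, against 12.7% in microglia. Ms4a4c no longer passed without the first astrocyte AD WT library, where its value was −0.80.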

How the results depend on the processing

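For the 10 genes, 1317 of the values under another setting kept their direction and side of the threshold, 42 lost a call, 4 gained one and 17 changed sign, none of those with a call. The cause of these changes was not tested, and where 1 library is left in a group, its spread is taken from the other groups. With the replicate number as a block, called genes went from 5815 to 6142 in CKO against WT microglia and from 12879 to 13257 in astrocytes, and the block changed no call of the 10 genes. With DESeq2 the counts were 5169 and 11744. Leaving out 1 library at a time gave 2118 to 3355 called genes in microglia for AD WT against WT (3343 over all libraries, the lowest without the second AD WT library) and 1385 to 1968 for the interaction (2202). For the other Ms4a genes it gave 0 to 2 called in AD WT against WT, 2 to 5 in AD CKO against AD WT and 2 to 4 in the interaction in microglia, and 1 to 5 in AD WT against WT in astrocytes. For the other border macrophage genes it gave 9 to 14 in microglia AD CKO against CKO and 3 to 6 in astrocyte AD WT against WT.

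Most values that changed sign were near 0. In microglia the interaction of Ms4a6c was 0.00804 with RLE and with DESeq2, 0.0197 without a low-count filter and −0.13 to 0.12 without single libraries, and its AD WT against WT value was −0.17 to 0.0788. Ms4a6d in AD CKO against CKO was 7.68e-05 without a low-count filter and −0.0511 to 0.0152 without single libraries. Ms4a4c in AD WT against WT was 0.00405 without a filter, 0.00283 with the compared groups alone and −0.0648 to 0.0545 without single libraries. It ranged from −0.27 to 0.0382 in AD CKO against CKO and from −0.26 to 0.0339 in the interaction. Ms4a4a in AD WT against WT ranged from −0.27 to 0.059 and Ms4a4b from −0.0429 to 1.98. Ms4a14 had no counts in the first WT library, so without the second WT library its fitted values are set against 0 counts and have no meaning as folds, although they passed the threshold. With these, it ranged from −0.71 to 7.38 in AD WT against WT and from −7.06 to 1.02 in the interaction, which was −0.00193 with a filter of 1 CPM. Tmem176b in AD CKO against AD WT was −0.00317 to 0.0591. In astrocytes, without single libraries, Cd163 ranged from −0.93 to 0.0799 in CKO against WT, −0.62 to 0.39 in AD WT against WT, −0.32 to 0.12 in AD CKO against AD WT, −0.0142 to 0.43 in AD CKO against CKO and −0.17 to 0.84 in the interaction. Pf4 in AD CKO against AD WT ranged from −0.19 to 0.46, Ms4a4b from −0.69 to 0.53, and Ms4a4c in AD WT against WT from −0.76 to 0.58.

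Depth limits the scarcest values, such as Clec12a in AD WT astrocyte libraries, which rests on 11 counts in each library. Whether the spread between libraries covers different animals or cell preparations is not known.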
